A study of Homo sapiens with 26 samples.

Results

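The mRNAs of the cytosolic ribosomal proteins were measured in 9 lines of a human breast cancer cell line: 3 control lines, and 6 clones edited at the gene of the kinase AURKA (Aurora A) that express an AURKA cDNA directed, or not, to a compartment. Members were every gene whose symbol has the form of a cytosolic ribosomal protein (RPL or RPS with a number and at most A, X or L, RPLP0 to RPLP2, and RPSA), chosen by name and not by any measured value. That gave 81 of the 33562 genes in the table, 48 of the large subunit and 33 of the small subunit. The measurement was mRNA sequencing of 26 libraries, given as RPKM, the reads of a gene scaled to its length and to the depth of the library.

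All lines descend from MDA-MB-231Luc, a mesenchymal-like triple-negative breast cancer line with luciferase, carrying the pLUTZ mRFP vector, and all were kept in doxycycline (0.1 to 1 mg/ml in the labels), which switches on an rtTA-responsive promoter. The 3 control lines, called Empty, NES-Empty and NLS-Empty, held a vector with no AURKA and the control guide sgCon, and were used at passages 19 to 20. The 6 AURKA lines, used at passages 32 to 35, were single clones edited at AURKA that expressed a guide-resistant AURKA cDNA. WT-AURKA c1 and c2 (MUT2 cDNA, sgAURKA2) had no added signal, NES-AURKA c1 and c2 (MUT2, sgAURKA2) had a nuclear export signal, and NLS-AURKA c2 and c3 (MUT1, sgAURKA1) had a nuclear localization signal. Editing, clonal origin, passage and cDNA therefore cannot be told apart between AURKA and control lines, nor can guide, cDNA version and localization signal between NLS-AURKA and the other clones. Each line had 3 libraries, except WT-AURKA c2 with 2, and the labels do not say that a line's libraries came from separate cultures. The p-values of single clones against a control line rest on the spread between those libraries, so they may measure technical spread. Those of the other comparisons rest on the spread between lines.

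The cytosolic ribosome joins a small subunit, which decodes the mRNA, to a large subunit, which forms the peptide bond. Most ribosomal proteins are needed in about equal number, and their mRNAs are among the most abundant of a dividing cell. Most of these mRNAs begin with a terminal oligopyrimidine (TOP) tract, an unbroken run of C and U from a first C, through which the kinase mTORC1 and the RNA-binding protein LARP1 set their translation. Production of the proteins is tied to the rRNA made by RNA polymerase I in the nucleolus, and free RPL5 and RPL11 bind MDM2 when assembly fails.

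The start sites of members on which the results below turn are shown because the TOP tract is the sequence feature that the family is known for. Each window holds 10 bases before and 20 bases from the annotated start in RefSeq on GRCh38.p14, 5′ to 3′, with the unbroken run of C and T from the start in capitals. A window was called TOP-like where its start was a C followed by at least 4 further C or T. RPS6 lies at chr9:19380217-19380246 on the minus strand, RPL7A at chr9:133348208-133348237 on the plus strand, RPL31 at chr2:101002279-101002308 on the plus strand and RPS18 at chr6:33272065-33272094 on the plus strand.
RPS6: gaagttggccCTCTTTTCCgtggcgcctcg
RPL7A: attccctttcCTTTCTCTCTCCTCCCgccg
RPL31: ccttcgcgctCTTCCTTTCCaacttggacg
RPS18: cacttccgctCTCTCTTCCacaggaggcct
RPL39 lies at chrX:119791611-119791640 on the minus strand, RPL36A at chrX:101391001-101391030 on the plus strand, RPS21 at chr20:62387093-62387122 on the plus strand, RPS14 at chr5:150449720-150449749 on the minus strand and RPL22 at chr1:6199576-6199605 on the minus strand.
RPL39: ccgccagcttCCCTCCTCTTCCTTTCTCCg
RPL36A: ctcgcggtttCTTTCTTTCCgcgccgatag
RPS21: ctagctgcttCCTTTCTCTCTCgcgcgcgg
RPS14: ccctcccactCTCTCTTTCCggtgtggagt
RPL22: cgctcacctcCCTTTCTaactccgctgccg
The annotated starts of 3 other members in the results were not TOP-like: RPS4X at chrX:72277229-72277258 on the minus strand, RPL17 at chr18:49492446-49492475 on the minus strand and RPS29 at chr14:49598691-49598720 on the minus strand.
RPS4X: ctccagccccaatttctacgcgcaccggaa
RPL17: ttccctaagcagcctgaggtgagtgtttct
RPS29: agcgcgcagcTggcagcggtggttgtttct

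A TOP-like start was present at 46 of the 63 members found in the RefSeq table of starts (73.0%), against 615 of 8790 other genes tested (7.0%) and 1404 of 27305 genes in the table (5.14%). The run CTCTTTCC on the transcribed strand was present near the start of 17.5% of these members and 2.08% of other genes tested. CCGGAAGT, the core that ETS factors bind, was present on either strand of 15.9% of the members and 10.7% of other genes tested. These matches describe the letters of the annotated windows only.

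The libraries fell into 2 sets by the letter in their names, and this difference came before every other. The 8 libraries lettered A to H, at most 1 a line and none from WT-AURKA c2, had an estimated depth of 17000000 to 20400000 reads, and the 18 lettered I to Z had 12300000 to 17000000. The nuclear RNA MALAT1 lay at 175 to 561 RPKM in A to H and 6.10 to 33.5 RPKM in I to Z, and a ribosomal RNA row held 10.9 to 15.9% of the RPKM sum against 0.635 to 10.1%. The labels give no meaning for the letters. Libraries W and X, both of NLS-AURKA c2, stood apart from each other, with 8.08 and 11.5% of their RPKM sum in the members. Markers of the parent line were present in all libraries (VIM at 234 to 1059 RPKM, EGFR at 22.2 to 70.7), and ESR1 and PGR were at or below 0.0220. The keratins KRT8 (28.1 to 104 RPKM) and KRT18 (65.3 to 222) were present as well. The epithelial marker CDH1 was uneven, at 0 to 15.5 RPKM (median 0.114). Its mean over lines was 3.64 in control, 0.0781 in WT-AURKA, 0.195 in NES-AURKA and 0.0383 in NLS-AURKA. By letter set the CDH1 mean was 3.55 RPKM in A to H and 0.342 in I to Z libraries. The 12 markers of blood, endothelial, fibroblast and erythroid cells summed to 0.618 to 2.96 RPKM. AURKA read 34.0 to 68.9 RPKM in control, 12.7 to 84.1 in WT-AURKA, 15.5 to 37.0 in NES-AURKA and 38.4 to 105 in NLS-AURKA libraries. RPKM does not tell endogenous from cDNA reads, and the highest WT-AURKA and NLS-AURKA values were single libraries, D and W.

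Of the 81 members, 79 reached 1 RPKM in at least 2 libraries and were tested, 47 of the large and 32 of the small subunit. The other 2, RPL3L and RPS10L, had means over the 9 lines of 0.00288 and 0.0693 RPKM, and RefSeq lists RPS10L as an older name of a pseudogene. RPL3L is the striated-muscle paralog of RPL3, a protein near the peptidyl transferase centre, which stood at 217 RPKM. RPL39L, the testis-enriched paralog of RPL39, was at 22.5 RPKM against 189 for RPL39, and RPS27L, a p53-responsive paralog, was at 4.89 RPKM against 418 for RPS27.

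On the RPKM scale the family ranged widely although the ribosome holds most of its proteins in equal number. The highest mean was that of RPS18, a protein of the small-subunit head, at 898 RPKM, with line means of 581 to 1181. RPS12 followed at 891 RPKM (625 to 1224), and their ranges over lines overlapped. RPL41, a peptide of the subunit interface, was at 701 RPKM, RPLP0, the base of the acidic stalk, at 634 and RPS2, which lines the mRNA entry channel, at 552. The remaining stalk proteins RPLP1 and RPLP2 were at 168 and 239 RPKM. The lowest member above the paralogs was RPS29, a zinc-binding protein of the head, at 28.1 RPKM.

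Members with a known role outside the ribosome lay between these ends. RPS6, the substrate of S6 kinase, was at 284 RPKM and RPSA, also known as the laminin receptor, at 265. RPL5 and RPL11, the MDM2 binders, were at 243 and 220 RPKM with line means of 167 to 273 and 149 to 264. RPS27A, made as a fusion with ubiquitin, was at 170 RPKM. Over the 9 lines the SD of log2 RPKM was widest for RPS4X (0.551), RPL17 (0.496), RPL31 (0.459) and RPL39 (0.434). It was narrowest for RPL23A (0.076), RPL38 (0.091) and RPL27A (0.093). Neighbouring readthrough and pseudogene rows share sequence with members: RPL17-C18orf32 reached 0.657 to 8.70 RPKM, RPS10-NUDT3 2.69 to 11.8, and the pseudogene RPL9P9 122 to 370, so the values of RPL17, RPS10 and RPL9 are uncertain to that extent.

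The first comparison asked whether the 2 letter sets measured the family alike within a line. All 79 tested members were called lower in A to H libraries on average over the 8 lines that have both. The members' share of a library's RPKM sum was 4.93 to 6.55% in A to H (median 5.97%, n = 8) and 8.08 to 11.5% in I to Z (median 9.17%, n = 18), with no overlap. Within line the A to H share was lower by 3.52 ± 0.53 percentage points (SD, 8 lines), in 8 of 8 lines (exact sign-flip permutation test, two-sided p = 0.0078125, the smallest that 8 lines allow). In bulk RNA, fewer cells of a type and less RNA per cell cannot be told apart, and neither can a change in the members from a change in the rest of the sum.

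**Figure D1:**
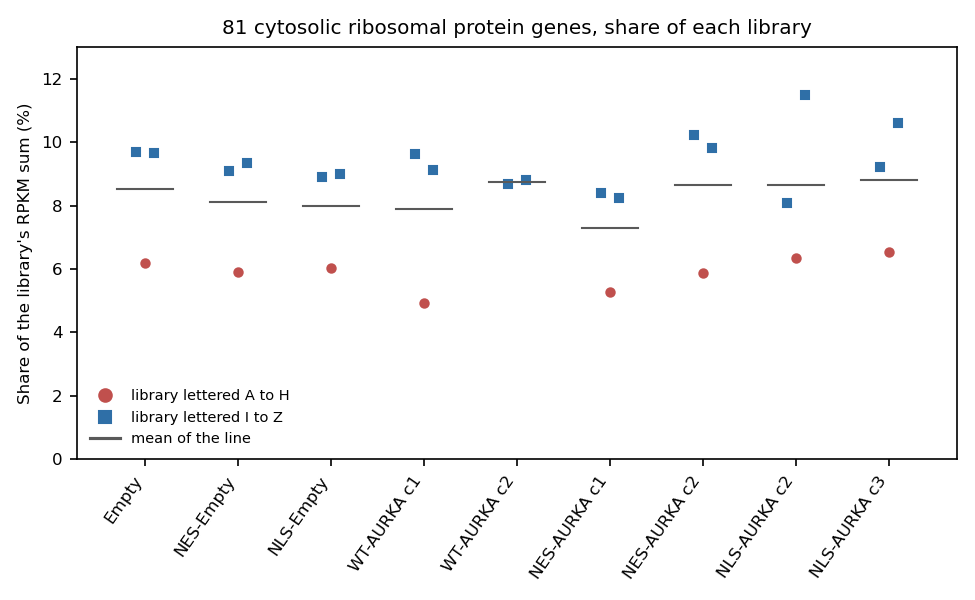
Share of each library's RPKM sum held by the 81 members (percent, vertical axis) in the 9 lines, with circles for A to H libraries, squares for I to Z libraries and bars for line means. Every circle (4.93 to 6.55%) lies below every square (8.08 to 11.5%), and WT-AURKA c2 has squares only.

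Gene by gene, limma on log2(RPKM + 1) called 79 of 79 members lower in A to H, where 65.7% of the 12589 genes tested were called, 39.0% lower and 26.6% higher. The median difference was -0.89 on the log2 scale for members and -0.09 for all genes tested. The A to H library was below both I to Z libraries in all 8 lines for 78 of 79 members (98.7%) and for 2586 of 12589 genes (20.5%). Every A to H library lay below every I to Z library for 53 members (67.1%) against 829 genes (6.59%). Rescaling libraries to a common sum without rRNA left 76 members lower, where 63.5% of all genes were called (46.4% higher, 17.1% lower). The members' median was then -0.49 and that of all genes 0.20.

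The size of this difference varied among members, and the small subunit was lower (median -1.04) than the large (median -0.86). The summed small-subunit RPKM was 0.696 to 0.811 of the summed large-subunit RPKM in A to H libraries and 0.812 to 0.899 in I to Z libraries. RPS29 lay at 9.20 to 14.0 RPKM in A to H (median 11.0, n = 8) and 21.6 to 59.4 in I to Z (median 36.1, n = 18). No A to H value of RPS29 reached an I to Z value, and its difference was -1.61 (SE 0.07, limma adjusted p = 7.18e-08). RPS21 and RPS14, the latter of the small-subunit platform, followed at -1.47 and -1.42, and RPSA at -1.40. RPL39L fell by 1.36 on this scale.

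The mildest members were of the large subunit. RPL22, an RNA-binding protein dispensable for translation, differed by -0.44 (SE 0.09, limma adjusted p = 0.00149), RPL37 by -0.49 and RPL19 by -0.54. RPL22 spanned 54.0 to 81.8 RPKM in A to H and 60.0 to 115 RPKM in I to Z libraries, so its sets overlapped. RPS27L was at -0.56. When each library was set to the members' own median, 35 members still differed between letter sets, 20 higher (15 large, 5 small) and 15 lower (5 large, 10 small). On that scale 89.8% of all genes tested were called (88.9% higher, 0.874% lower), since subtracting a lowered family raises the rest.

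**Figure D2:**
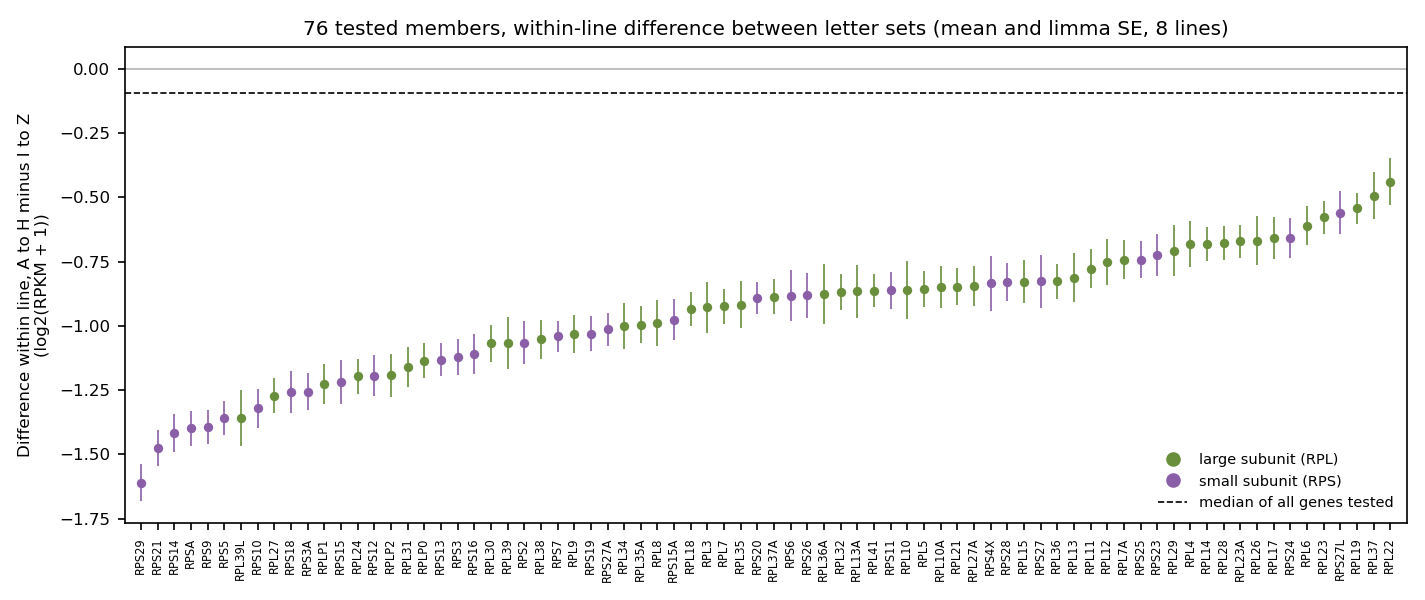
Within-line difference (A to H minus I to Z, log2(RPKM + 1), vertical axis) of 76 of the 79 tested members in order of size, as the mean over 8 lines with its limma SE, coloured by subunit. All members shown lie below the median of all 12589 genes (-0.09, dashed), from RPS29 at -1.61 to RPL22 at -0.44.

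The sequence class of the start did not separate the members in this comparison. The 46 members with a TOP-like start had a median difference of -0.93 (range -1.47 to -0.44) and the 17 without one -0.85 (range -1.61 to -0.54), so the ranges overlapped. Of the extreme members shown above, RPS29 has no TOP-like start, RPS21 and RPS14 have runs of C and T, and RPL22, the mildest, has one as well. As a description across the 79 members, the difference had Pearson's r of 0.205 with transcript length, -0.237 with GC content and -0.121 with level. These points share libraries and are not independent.

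Genes tied to the ribosome differed between letter sets in the same direction, though not they alone. Of 7 ribosomal proteins outside the symbol pattern, 6 were lower, among them FAU (-1.42), made as a fusion that yields RPS30, and RACK1 (-0.77), the kinase scaffold of the small subunit. Of 12 genes of translation elongation and release, TPT1 and the kinase EEF2K included, 11 were lower (median -0.66), and of 38 initiation factors 29 were lower and 4 higher (median -0.53), with EIF4G3 at 1.74. Among 78 tested ribosome assembly factors 52 were lower and 9 higher (median -0.41): FBL, the rRNA methylase, stood at -1.14 and TCOF1, a long nucleolar protein mRNA, at 1.66. The 20 genes of the RNA polymerase I machinery gave 12 lower and 5 higher.

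Of 17 other TOP mRNAs and snoRNA host genes, 13 were lower and 1 higher. Among 18 genes of the mTORC1, LARP1 and MYC axis, 6 were lower and 5 higher: EIF4EBP1, an inhibitor of cap-dependent translation, was at -1.44 and LARP1 at 1.10. The 48 short abundant mRNAs with other functions were all lower (median -0.88, ROMO1 at -2.09), and 74 of 77 mitochondrial ribosomal protein genes were lower (median -0.79). MALAT1 was higher by 4.09 and NEAT1 by 3.25. The part of RNA class, transcript length or library preparation in the members' difference was not tested.

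The letter-set difference itself was compared between AURKA and control lines. No member was called, where 0.183% of all genes tested were (0.0159% higher, 0.167% lower). At an unadjusted p under 0.05 there were 3 members, RPS6, RPL8 and RPS23, and 1464 genes in all (limma, 5 AURKA against 3 control lines).

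The comparison of AURKA with control lines asks how restoring AURKA in edited clones leaves the family. No shift of the family as a whole was detected. Its share of the RPKM sum was 8.2 ± 0.282% in control lines (SD, n = 3) and 8.33 ± 0.603% in AURKA lines (n = 6), and the difference of 0.131 points was within the spread between lines (exact permutation test over 84 splits, two-sided p = 0.774). These line means were not adjusted for letter set. WT-AURKA c2 (8.74%) had no A to H library, the set with the lower shares, so the sign of the share difference is not interpreted. RPS4X, RPS6, RPL7A, RPL34, RPS3A and RPL35 were higher and RPL37 was lower. These 7 of 79 members (8.86%) compare with 19.2% of all genes tested by the same limma rule, 8.85% higher and 10.4% lower. The median difference was -0.06 for members and -0.02 for all genes. By the same limma fit 14 of 79 members were under an unadjusted p of 0.05, where at least the 2423 called of 12589 genes (19.2%) were. Relative to the members' own median 8 members were called, 7 higher and 1 lower, beside 11.6% of all genes (6.51% higher, 5.08% lower).

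RPS4X, the X-linked copy of a small-subunit protein that also has a Y-linked copy, moved most. Control libraries held 134, 138 and 139 RPKM in A to H and 215 to 226 in I to Z (median 218, n = 6). AURKA libraries held 163 to 295 in A to H (median 256, n = 5) and 331 to 574 in I to Z (median 488, n = 12). Within each letter set every AURKA library exceeded every control library, and the log2 difference over lines was 1.03 (SE 0.15, limma adjusted p = 0.00177).

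RPS6, the small-subunit protein phosphorylated by S6 kinase, was the next largest. Control libraries held 113 to 178 RPKM in A to H and 199 to 241 in I to Z (median 201), AURKA libraries 155 to 245 in A to H and 323 to 470 in I to Z (median 385). The groups were apart in I to Z libraries and overlapped in A to H libraries, where the Empty library was highest among controls. The difference was 0.79 (SE 0.13, limma adjusted p = 0.00405), and 0.48 in A to H libraries alone (adjusted p = 0.160).

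RPL7A, a large-subunit protein, rose from 199 to 252 RPKM in A to H and 317 to 375 in I to Z control libraries to 255 to 356 and 441 to 686 in AURKA libraries. No AURKA library lay below a control library of its letter set, and the difference was 0.60 (SE 0.10, limma adjusted p = 0.00449). RPL34 differed by 0.51 (SE 0.12, adjusted p = 0.0191), with 35.7 to 36.5 RPKM in control and 39.3 to 70.9 in AURKA A to H libraries, and 69.6 to 78.1 against 80.4 to 146 in I to Z. RPS3A (0.47) and RPL35 (0.44) completed the higher group.

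RPL37, a zinc-binding protein of the large subunit, was the single lower member. It was at 60.0 to 66.0 RPKM in control A to H and 74.9 to 84.7 in control I to Z libraries (median 78.6), and at 28.3 to 50.1 and 47.3 to 92.1 (median 54.6) in AURKA libraries. The groups were apart in A to H, while library X of NLS-AURKA c2 reached 92.1 RPKM, above all control libraries. The difference was -0.52 (SE 0.12, limma adjusted p = 0.0167). Without any 1 of the 3 control lines, 3 to 4 members were called beside 7.20 to 8.20% of all genes, and RPL34 and RPL37 were lost each time (adjusted p of 0.0618 to 0.0943).

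Other gene lists gave the following counts, and their difference from the members was not tested. Of 78 ribosome assembly factors 17 were lower in AURKA lines and 2 higher (median -0.29 against -0.02 for all genes): RRP12, a nuclear export factor of subunits, was at -0.87 and NOP14, of the small-subunit processome, at -0.78. Among initiation factors 4 were lower and 2 higher, with EIF2S3, the X-linked gamma subunit of eIF2, at -1.37 and EIF1AX, also X-linked, at -0.88. GAS5 (-0.69), ZFAS1 (-0.64) and IMPDH2 (-0.55) were the 3 lower of 17 other TOP mRNAs and snoRNA hosts. Of 18 mTORC1, LARP1 and MYC axis genes, MTOR (-0.41), RPS6KB1 (-0.36) and TSC2 (-0.27) were lower. Short abundant mRNAs were higher in 9 and lower in none of 48, and mitochondrial ribosomal protein genes were lower in 14 and higher in 2 of 77. The 7 ribosomal proteins outside the symbol pattern and the 12 elongation and release genes had no call, and RNA polymerase I genes had 2 higher and 1 lower of 20.

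The constructs were compared among the AURKA clones, 2 lines each, to ask whether the compartment of AURKA matters for the family. Members were called between NLS-AURKA and each of the other constructs, in a smaller share than among all genes tested, and no member was called between NES-AURKA and WT-AURKA. NLS-AURKA exceeded NES-AURKA in 15 members and was below it in 6, or 21 of 79 (26.6%), where 33.2% of all genes tested were called (19.1% higher, 14.1% lower). The median difference was 0.13 for members and 0.05 for all genes. Against WT-AURKA 12 members were higher and 8 lower (25.3%), where 36.1% of all genes were called (18.7% higher, 17.4% lower). Both comparisons use the same NLS-AURKA lines. Relative to the members' own median, 19 members (24.1%) differed from NES-AURKA (13 higher, 6 lower) beside 16.0% of all genes (7.71% higher, 8.30% lower). From WT-AURKA 25 (31.6%) differed (17 higher, 8 lower) beside 20.0% of all genes (11.5% higher, 8.46% lower).

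NLS-AURKA was highest in RPL17 and RPL31, proteins that surround the exit of the peptide tunnel. RPL17 was at 199 and 205 RPKM in NLS-AURKA A to H libraries and 249 to 430 in its 4 I to Z libraries. All other lines held 69.8 to 158 RPKM in A to H (n = 6) and 124 to 195 in I to Z (median 153, n = 14). NLS-AURKA was thus above every other library of its letter set, by 1.15 over NES-AURKA (SE 0.17, limma adjusted p = 0.00143) and 1.14 over WT-AURKA.

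RPL31 was at 69.9 and 71.1 RPKM in NLS-AURKA A to H and 104 to 200 in its I to Z libraries. Other lines held 24.8 to 34.0 in A to H and 58.9 to 81.5 in I to Z (median 71.7, n = 14), again without overlap. The differences were 1.09 (SE 0.11, limma adjusted p = 0.000238) over NES-AURKA and 1.01 over WT-AURKA. RPL31 kept its call in each of the alternatives computed for these 2 comparisons.

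RPS18 and RPS10, proteins of the small-subunit head and beak, were also higher. RPS18 was at 563 and 654 RPKM in NLS-AURKA A to H libraries against 313 and 323 in NES-AURKA, and at 1002 to 1979 against 696 to 958 in I to Z. The NLS-AURKA and NES-AURKA libraries did not overlap within a letter set, but control lines, at 550 to 565 and 1169 to 1264 RPKM, were nearer to NLS-AURKA. The difference over NES-AURKA was 0.84 (SE 0.16, limma adjusted p = 0.00468). For RPS10 it was 0.71 and control RPS10, at 389 to 454 RPKM in I to Z, likewise lay inside the NLS-AURKA range of 358 to 769. Smaller differences over NES-AURKA included those of RPS27A (0.59), RPS7 (0.54), RPL6 (0.49), RPL12 (0.48), RPS28 (0.47), RPL10A (0.47), RPS27 (0.42), RPL34 (0.39), RPL37 (0.35) and RPL37A (0.32).

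Among the lower members were 3 X-linked genes, RPL39 of the exit tunnel, RPL10, which joins the large subunit late and completes its active site, and RPL36A. In I to Z libraries RPL39 was at 126 to 232 RPKM in NLS-AURKA and 262 to 356 in WT-AURKA and NES-AURKA together (median 282, n = 8). Control lines were at 154 to 173 RPKM, within the NLS-AURKA range. The same order held in I to Z for RPL10 (108 to 173 in NLS-AURKA, 200 to 265 in the other clones, 143 to 150 in control) and RPL36A (42.7 to 78.6, 80.9 to 102 and 43.7 to 49.4).

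Over all libraries RPL39 differed by -0.53 (SE 0.12, limma adjusted p = 0.00860) from NES-AURKA and by -0.96 from WT-AURKA. RPL36A gave -0.57 and -0.80, and RPL10 -0.48 and -0.77. In A to H libraries alone the differences from NES-AURKA were -0.17 for RPL39 (adjusted p = 0.660), -0.25 for RPL36A (0.567) and -0.01 for RPL10 (0.986), against -0.71, -0.73 and -0.71 in I to Z libraries. RPS21 was below NES-AURKA by -0.78 (SE 0.18, limma adjusted p = 0.0100), with 78.9 and 85.8 RPKM against 120 and 177 in A to H. In I to Z libraries its 152 to 377 RPKM overlapped the 290 to 480 of NES-AURKA through library X. RPS15 (-0.43) and RPL36 (-0.42) were the other lower members.

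Further calls against WT-AURKA were RPS27A (0.51), RPS10 (0.61), RPS18 (0.62), RPL6 (0.59), RPS23 (0.46), RPS7 (0.43), RPS28 (0.37), RPL19 (0.35) and RPL37 (0.35) higher. RPS21 (-0.58), RPL36 (-0.52), RPS4X (-0.49), RPS15 (-0.48) and RPS19 (-0.36) were lower. WT-AURKA c2 had no A to H library, so its mean held none of the lower values. With each gene's letter-set difference removed, 28 members were called (35.4%), 23 higher and 5 lower, beside 36.7% of all genes in that fit (19.7% higher, 17.0% lower), and RPS21 lost its call (-0.33, adjusted p = 0.185). The same correction left NLS-AURKA against NES-AURKA at 22 members (27.8%), 16 higher and 6 lower, beside 36.1% of all genes (20.9% higher, 15.2% lower).

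Library X carried part of these counts. Without it, 8 members (10.1%) differed between NLS-AURKA and NES-AURKA, 2 higher and 6 lower, beside 30.8% of all genes in that fit (18.1% higher, 12.7% lower). RPS18 (0.61, adjusted p = 0.0643) was among those that lost their calls. With the letter-set difference removed as well, 17 members (21.5%) were called without library X beside 35.3% of all genes, and RPS18 (0.71, adjusted p = 0.00589) was among them. Without NLS-AURKA c2 9 members were called beside 17.7% of all genes, without NLS-AURKA c3 7 beside 19.9%, and without NES-AURKA c2 32 beside 43.5%.

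No member differed between NES-AURKA and WT-AURKA by limma, where 4.87% of all genes tested did (1.56% higher, 3.30% lower). Relative to the members' own median the count was also 0, beside 0.524% of all genes (0.302% higher, 0.222% lower). At an unadjusted p under 0.05 there were 11 members, and 2905 genes in all. The members at either end were RPS12 at -0.52 (SE 0.24), RPS3 at -0.47, RPL35A at 0.27 and RPS23 at 0.36 (SE 0.13). Leaving out NES-AURKA c1, NES-AURKA c2 or library D gave calls among the members and more calls among all genes. Leaving out any other line gave no member call and fewer calls among all genes (0.159 to 3.46%). Without library D of WT-AURKA c1 there were 22 (27.8%), all lower, beside 21.5% of all genes (8.71% higher, 12.8% lower). Without NES-AURKA c1 there were 9 (11.4%) beside 19.4% of all genes, and without NES-AURKA c2 14 (17.7%) beside 16.3%. Without library D the WT-AURKA lines keep no A to H library, and with the letter-set difference removed no member was called with or without library D.

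Other gene lists in NLS-AURKA against NES-AURKA gave 16 higher and 2 lower of 78 assembly factors, 7 and 2 of 38 initiation factors, and 3 and none of 7 ribosomal proteins outside the pattern. Elongation and release genes had 1 higher and 1 lower of 12, other TOP and snoRNA host genes 3 and 1 of 17, RNA polymerase I genes 4 and 1 of 20, and the mTORC1, LARP1 and MYC axis 1 and 3 of 18. Mitochondrial ribosomal protein genes had 23 higher and 6 lower of 77, and short abundant mRNAs 7 and 8 of 48.

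**Figure D3:**
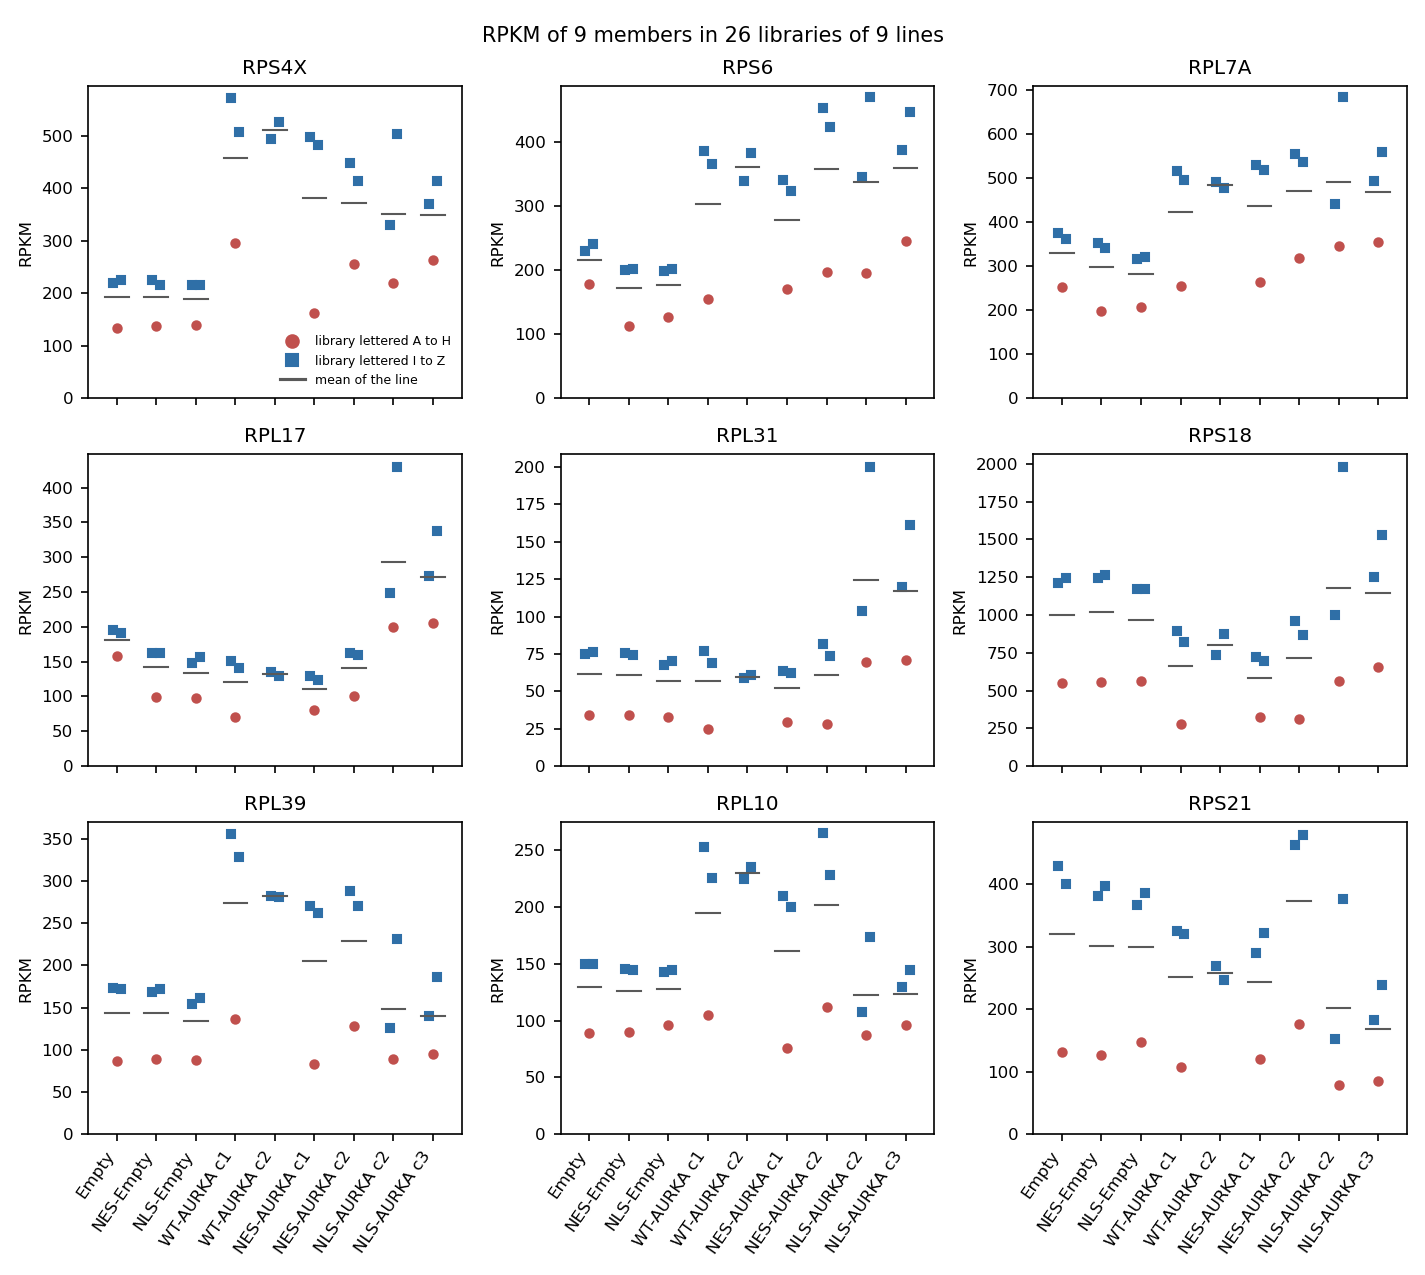
RPKM (vertical axis, from 0) of 9 members in every library of the 9 lines, circles for A to H, squares for I to Z and bars for line means. RPS4X, RPS6 and RPL7A are higher in all AURKA lines, RPL17 and RPL31 in NLS-AURKA, and RPL39 and RPL10 in the I to Z libraries of WT-AURKA and NES-AURKA.

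Each clone was also set against the control line with the same vector signal, with a term for letter set. The balance of higher and lower members varied between clones. WT-AURKA c1 had 6 members higher and 19 lower, or 31.6% called beside 30.9% of all genes tested (15.4% higher, 15.4% lower). WT-AURKA c2 had 5 and 19, or 30.4% beside 24.2% (10.7 and 13.5%), and NES-AURKA c1 5 and 23, or 35.4% beside 35.1% (16.6 and 18.5%). NES-AURKA c2 went the other way, with 10 higher and 3 lower, or 16.5% beside 26.3% (10.4 and 15.9%). NLS-AURKA c2 had 16 and 4, or 25.3% beside 38.2% (20.2 and 18.0%), and NLS-AURKA c3 14 and 2, or 20.3% beside 33.9% (18.2 and 15.7%). Clones of 1 construct share their control line, and these p-values rest on the spread between libraries of a line. Without library X the sum over the 6 comparisons went from 126 calls to 177, or from 26.6 to 37.3% of members tested, and from 31.4 to 35.1% of all genes tested.

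RPS4X was called higher in all 6 clones, by 1.23 and 1.16 in WT-AURKA, 0.85 and 0.94 in NES-AURKA and 0.84 and 0.88 in NLS-AURKA. RPL37 was called lower in the 4 WT-AURKA and NES-AURKA clones, at -0.73, -0.80, -0.67 and -0.49. In NLS-AURKA it was at -0.25 and -0.35 with no call (limma adjusted p of 0.26 and 0.12). RPS6 was called higher in the NES-AURKA (0.68 and 1.02) and NLS-AURKA clones (0.88 and 1.02). In WT-AURKA it was at 0.38 and 0.45 with no call (adjusted p of 0.0558 and 0.0554), and Empty, the control of WT-AURKA, lay 0.23 above the control mean for RPS6.

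Set out by chromosome, members of some chromosomes lay on one side in a clone and those of others did not. Values here are relative to the mean of the control lines with the letter-set difference removed, except where stated. The 4 X-linked members had medians of 0.90 in WT-AURKA c1, 0.50 and 0.75 in the NES-AURKA clones, but 0.11 and 0.05 in the NLS-AURKA clones. In WT-AURKA c2 their median was 1.02 without that removal. This line had no A to H library, the set with the lower values, so its 1.02 is not comparable with the other medians. RPS4X was the exception among the X-linked members, at 0.82 and 0.87 in NLS-AURKA, while RPL10, RPL36A and RPL39 lay between -0.09 and 0.20 there. The same members stayed within -0.05 and 0.04 in each control line. On chromosome 18 RPL17 was at 0.90 and 0.84 in NLS-AURKA and between -0.44 and -0.11 in the other clones. On chromosome 1 RPL5, RPL11, RPL22 and RPS27 lay between -0.65 and -0.57 in NES-AURKA c1. On chromosome 19, by contrast, the 12 members ranged from -0.52 to 0.56 in NLS-AURKA c2, and on chromosome 6 the 4 members ranged from -0.67 to 0.46 in WT-AURKA c1.

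**Figure D4:**
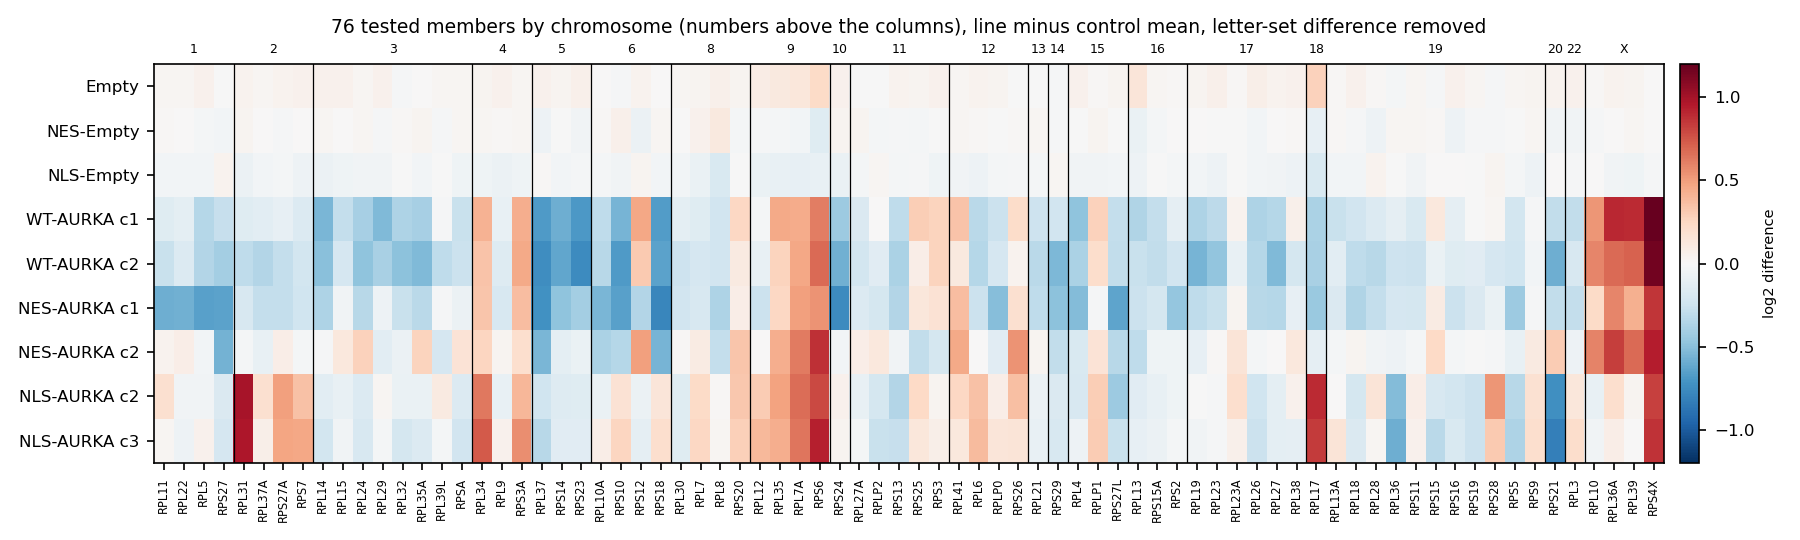
Colour map of 76 of the 79 tested members (columns, grouped by chromosome) in the 9 lines, as the line's log2 difference from the mean of the control lines with the letter-set difference removed (red higher, blue lower). Control lines are pale, X-linked members are red in WT-AURKA and NES-AURKA, RPL31 and RPL17 in NLS-AURKA, and RPS4X and RPS6 in all 6 AURKA clones.

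Each member was then set beside up to 50 tested genes nearest to it on its chromosome, none of them ribosomal protein genes, in RefSeq gene order. This grouping was chosen after the members' values had been seen. Members' and neighbours' differences went together in every comparison between lines. Over the 79 members Pearson's r between a member and its neighbours' median was 0.82 (Spearman's rho 0.68) for AURKA against control, 0.82 (0.79) for NLS-AURKA against NES-AURKA, 0.81 (0.74) for NLS-AURKA against WT-AURKA and 0.75 (0.71) for NES-AURKA against WT-AURKA. For the letter sets r was 0.03 (0.07). These are descriptions over members that share libraries, and nearby members share neighbours.

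In AURKA against control, RPS4X at 1.03 had neighbours at a median of 0.71, and RPL37 at -0.52 had neighbours at -0.43. RPL34 at 0.51 stood beside 0.35, and RPL7A at 0.60 beside 0.31. On chromosome X 25% of 400 other tested genes were called higher, on chromosome 9 32.8% of 466 and on chromosome 4 27.6% of 421, while on chromosome 5 26.7% of 514 were called lower. RPS6 departed from this: at 0.79 its neighbours on chromosome 9 had a median of 0.09, and its excess of 0.69 was the widest of the 79 members.

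In NLS-AURKA against NES-AURKA, RPL17 at 1.15 had neighbours at 0.50, and 72.0% of 157 other tested genes on chromosome 18 were called higher. RPS18 (0.84) and RPS10 (0.71), which lie near each other on chromosome 6, had neighbours at 0.59 and 0.54, and RPS27A (0.59) at 0.46. RPS21 at -0.78 had neighbours at -0.63. RPL10 (-0.48) and RPL39 (-0.53) had neighbours at -0.64 and -0.57, and 56.2% of the other chromosome X genes were called lower.

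Here RPL31 lay furthest above its neighbours and RPL36A furthest below. RPL31 at 1.09 stood beside a median of 0.27, with the widest excess (0.82), and RPL36A at -0.57 beside -0.07, with the widest shortfall (-0.50). RPL17, at 1.15 beside 0.50, and RPL12, at 0.48 beside -0.04, also lay well above their neighbours. Over all members the median absolute difference was 0.18 in NLS-AURKA against NES-AURKA and 0.14 after the neighbours' median was subtracted. It was 0.16 and 0.11 in AURKA against control. The part of the neighbourhood in the members' differences was not tested, nor was DNA content measured.

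**Figure D5:**
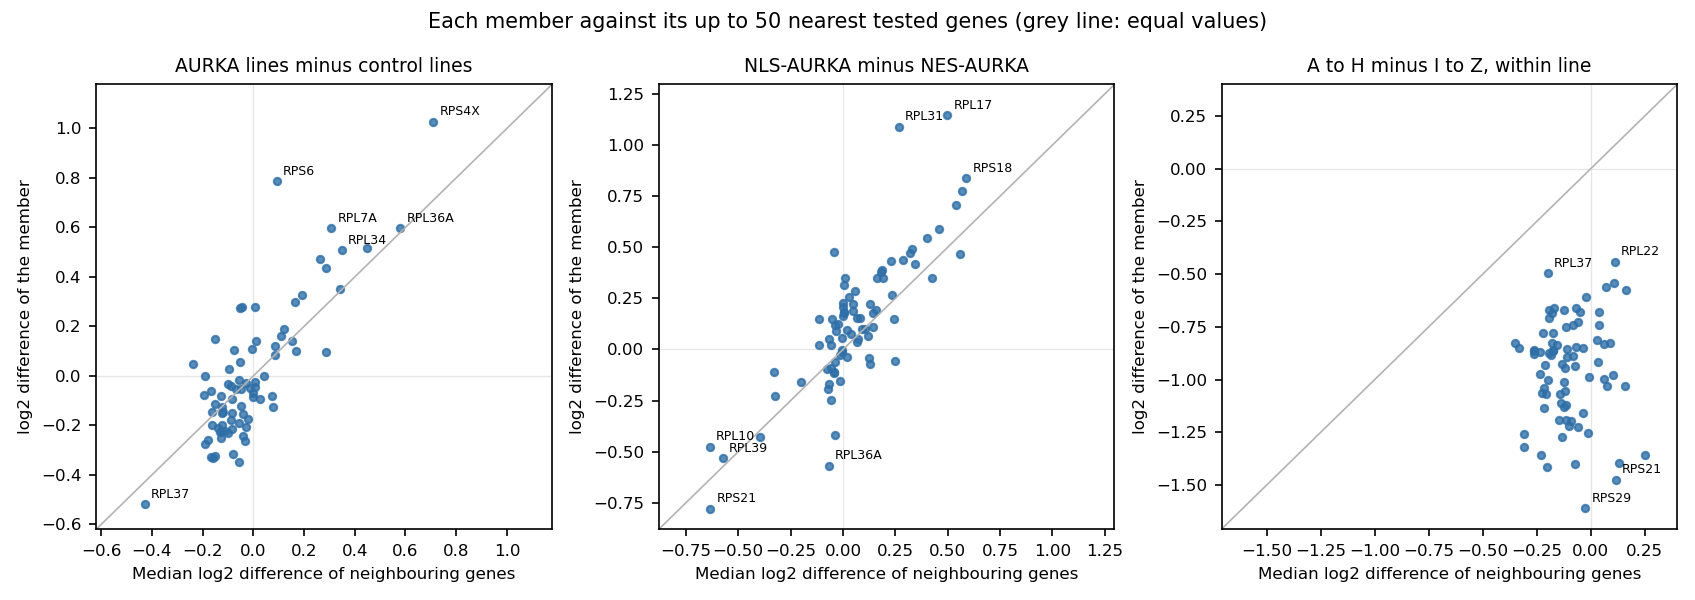
Log2 difference of each of 79 members (vertical axis) against the median log2 difference of its up to 50 nearest tested genes (horizontal axis), in AURKA against control lines, NLS-AURKA against NES-AURKA and A to H against I to Z; the grey line marks equal values. Members follow their neighbours in the first 2 panels (r of 0.82 each), with RPS6 and RPL31 above the line, and not in the third (r of 0.03).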

How the data were processed

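The authors deposited 1 table of RPKM for 33562 gene symbols in 26 libraries. Per the labels, 500 ng of total RNA entered a KAPA mRNA library kit. HISAT2, SAMtools, Partek and hg19 are named per the submitters' processing notes. Which gene annotation and strand setting were used, and how reads with several matches were treated, is not given in the sources used here. Raw counts were not used here. Depth was estimated from the smallest steps of the RPKM values, with medians of 18600000 reads in A to H and 14800000 in I to Z libraries.

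Genes with at least 1 RPKM in at least 2 libraries (12589) were tested with limma 3.58.1 (R 4.3.3, trended empirical Bayes) on log2(RPKM + 1), on which fold changes of low genes are understated. The unit was the mean of a line (9 lines). P-values were adjusted by Benjamini-Hochberg over all genes tested, and a call is an adjusted p under 0.05. The letter sets were compared within 8 lines, clones over 26 libraries with a letter-set term, and shares with exact permutation tests. The members and gene lists were chosen with earlier results of these data known. Members named are the 5 highest and lowest, the paralogs, those with known roles, the 4 widest and 3 narrowest over lines and up to 4 called members at either end of each test, and further called members were named after their values were seen. A few members enter the counts and fits but are not reported here by name. Removing the letter-set difference subtracts a gene's A to H coefficient from a fit with line terms, without counting its degree of freedom.

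The fits were tested on simulated data with 200 changed genes of 12589: at a log2 change of 1, 98.5% were recovered in AURKA against control, 94% in NLS-AURKA against NES-AURKA and 100% between letter sets, and at 0.5, 81%, 0% and 96.5%. Far more genes were called in the data (33.2% in NLS-AURKA against NES-AURKA), which makes the adjusted threshold less strict than in the simulation. Members were called there below 0.5, such as RPL37A at 0.32, so these rates are not detection limits for the data. Alternatives were the pseudocount, the filter, a robust fit, rescaling, I to Z libraries alone and leaving out each line. Chosen after seeing the data were A to H libraries alone, leaving out libraries D, W or X, removing the letter-set difference, and neighbouring genes (RefSeq GRCh38.p14 order, 25 on either side). Sequences are from RefSeq on GRCh38.p14, while the table was made on hg19.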

Additional observations from a re-analysis of the deposited data

Results flagged for a closer look

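RPL22, a large-subunit protein encoded on chromosome 1, stood at 59.9 RPKM in NES-AURKA c1, while the other 5 AURKA lines lay between 85.0 and 97.4 RPKM. The gap to the nearest line was 0.669 of the range over the 6 lines, beyond Dixon's limit for 6 values, a limit that chance passes in about 1 group in 20. Of 39 groups examined this was the 1 that passed it. In the same clone RPL5, RPL11 and RPS27, also on chromosome 1, lay at -0.65, -0.58 and -0.64 relative to the control mean on the log2 scale, with the letter-set difference removed.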

How the results depend on the processing

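The 79 members lower in A to H libraries were called lower under every alternative computed except rescaling without rRNA. That setting gave 76 members lower, beside 17.1% of all genes lower and 46.4% higher. The share difference stayed between -3.60 and -3.38 points with any 1 line left out. Of 694 alternative values for named members none changed sign and 60 lost their call, 13 of them for RPS21 between NLS-AURKA and WT-AURKA. RPS4X (0.77 to 1.08) kept its call in all 22 alternatives. Counts of calls moved as follows. In A to H libraries alone AURKA against control gave 1 member beside 12.3% of all genes (4 beside 14.2% relative to the members' median). NLS-AURKA against NES-AURKA gave 8 there beside 8.21%. WT-AURKA has 1 A to H library, so no count is given for it in that setting. With 1 line left out, AURKA against control gave 3 to 8 members beside 7.20 to 21.3% of all genes. Relative to the members' median it gave 3 to 10 beside 2.94 to 13.7%. NLS-AURKA against NES-AURKA gave 7 to 32 beside 17.7 to 43.5%, and NLS-AURKA against WT-AURKA 9 to 30 beside 19.7 to 50.1%. NES-AURKA against WT-AURKA gave 0 to 14 beside 0.159 to 19.4%. Clones against matched controls gave 69 to 182 beside 26.5 to 37.5%, where leaving out a control line removes 2 comparisons. With no filter NLS-AURKA against WT-AURKA gave 13 beside 12.2%. NES-AURKA against WT-AURKA gave 1 in I to Z libraries alone beside 5.11%, and 22 without library D beside 21.5%. NLS-AURKA against NES-AURKA gave 8 without library X beside 30.8%. Without library D NLS-AURKA against WT-AURKA gave 29 members, 6 higher and 23 lower, beside 48.1% of all genes. With the letter-set difference removed, AURKA against control gave 8 members beside 21.3%. Leaving out library X or D then gave 10 and 7, beside 20.5 and 20.2%. The difference in the members' mean log2 level between AURKA and control lines was -0.000108, of opposite sign to the share difference of 0.131, and neither passed its exact permutation test. The cause of these movements was not tested, apart from the missing A to H library of WT-AURKA c2. Depth was estimated rather than given, each construct had 2 lines, which limits the size of difference that can be detected between them. The libraries carry letters and share no replicate numbers between lines, so none were paired by number. The letter set served as the block instead: it was compared within line, entered the clone fits as a term and was removed in the alternative above, where NLS-AURKA against WT-AURKA gave 28 members and against NES-AURKA 22.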
